A study of Mus musculus with 14 samples.

Results

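The genes described here are 35 carriers and receptors that move nutrients, hormones, drugs and ions across barrier endothelium, chosen by symbol from a list of solute carrier (Slc), organic anion carrier (Slco) and ATP-driven pump (Abc) genes of the blood-retina barrier. All 35 of the 35 symbols were present among the 40123 gene symbols of the expression table, and all 35 were high enough to be tested. Of the 35, Slc9a3r2 encodes a scaffold protein and Insr the insulin receptor, so these genes are barrier-associated rather than transporters. The rule used symbols alone and no measured value, although the genes were chosen with earlier results of these data known.

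The inner blood-retina barrier is formed by retinal endothelial cells that are sealed to each other by tight junctions. Glucose, amino acids, lactate, vitamins and thyroid hormone therefore cross through dedicated carriers in the cell membrane, while ATP-driven pumps return drugs and lipophilic compounds to the blood. Most of these carriers are not specific to endothelium: Müller glia, photoreceptors and the retinal pigment epithelium, which forms the outer barrier, use several of the same genes for glucose, lactate, taurine and creatine.

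RNA was sequenced from retinal veins of 9-month-old mice of 2 groups, 5 normotensive controls of the strain DBA/2J-Gpnmb+/SjJ and 9 mice of the strain DBA/2J. DBA/2J mice are homozygous for mutant alleles of Gpnmb and Tyrp1 and develop an iris disease followed by raised eye pressure with age, and the control strain shares the background but carries a working Gpnmb allele. Every mouse of both groups received the dye sodium fluorescein (0.33 mg per g) 5 minutes before it was killed, so that vessels could be seen during dissection, and 4 major veins of a mouse were combined into its library. Eye pressure, sex and disease stage of the single mice are not given in the sources used here, and the comparison is of strains, in which genotype, pressure and iris disease cannot be told apart.

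The values are estimated counts per gene that the authors scaled between libraries (scaled estimated counts). Scaled totals ran from 14806322 to 22159797 per library, and estimated depths, read off the spacing of low values, from 8931959 to 33786377 reads. Gpnmb, the gene that differs by design, stood at 1409 to 3190.1 in the controls and at 65.4 to 516 in DBA/2J, without overlap. Library numbers ran from 16 to 30 in the controls and from 31 to 39 in DBA/2J, so that the order of the libraries and the strain cannot be told apart. Across all 29166 genes tested with limma, 3518 were higher and 2101 lower in DBA/2J, which is 12.1% and 7.2%, and the median log2 fold change was 0.05. These splits depended on scaling: after division by library totals, 5428 were higher and 1308 lower and the median moved to 0.19, and with quantile normalization 2740 were higher and 2868 lower.

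The veins were not pure endothelium. No gene of the pan-endothelial marker list (18 genes, Pecam1 and Cdh5 among them) was at 0 in any library, but the list summed to 0.112% to 0.162% of a control library and 0.118% to 0.426% of a DBA/2J library. Markers of rod photoreceptors summed to 1.8% to 3.83% and 2.23% to 6.11%. Lens markers, chiefly crystallins, summed to 7.4% to 15.5% of the control libraries and to 0.0151% to 1.01% of the DBA/2J libraries, and 9 of 9 were lower in DBA/2J; the lens gene Lim2 was the only marker at 0 in a library. Markers of Müller glia, the main glial cell of the retina, summed to 0.229% ± 0.0371 (SD, n = 5) in the controls and 0.372% ± 0.118 (SD, n = 9) in DBA/2J (exact permutation test, two-sided, adjusted p = 0.038 over 8 lists). That difference no longer passed when any 1 of the 5 controls or DBA/2J 6 or 7 was left out, nor, at 0.0184 percentage points, without the most abundant gene of the list, nor, at 0.117 percentage points (adjusted p = 0.0759), with the lens list left out of the library total. Endothelial (adjusted p = 0.119) and leukocyte (adjusted p = 0.121) shares did not pass the exact permutation test, although 6 of 18 and 4 of 10 of their genes were higher. In bulk tissue, fewer cells of a type and less RNA per cell cannot be told apart.

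**Figure D1:**
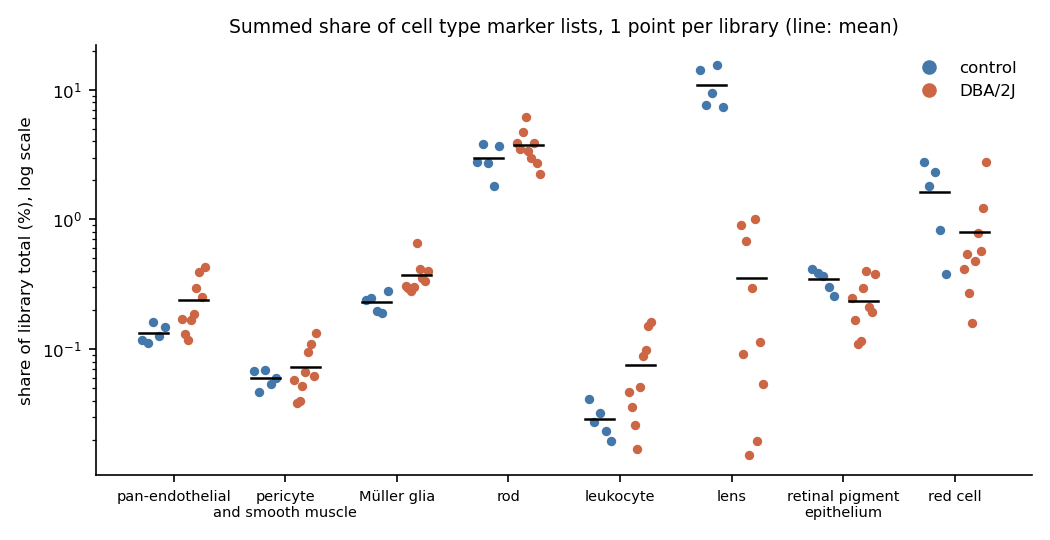
Summed share of 8 marker lists in each library, in percent of the library total on a log axis, with 1 point per library and a line at the group mean. Lens markers separate the groups without overlap (7.4% to 15.5% against 0.0151% to 1.01%), while the pan-endothelial share of the DBA/2J libraries runs from 0.118% to 0.426%, from within the control range (0.112% to 0.162%) upward.

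Of the 35 genes, 13 rose in DBA/2J and 0 fell (limma, Benjamini-Hochberg adjustment over all genes tested, threshold 0.05). The 13 were the neuronal-type glucose carrier Slc2a3, the pumps Abcc1, Abcc4 and Abcc5, the organic anion carrier Slco2b1, the amino acid carriers Slc7a8, Slc38a2 and Slc1a4, the taurine carrier Slc6a6, the zinc carriers Slc30a1 and Slc39a10, the chloride cotransporter Slc12a2 and the insulin receptor Insr. That is 37.1% of the list, against 12.1% of all genes tested that were higher, 7.2% that were lower, and 20.9% that were higher among coding genes averaging 1 CPM or more. The log2 fold change was positive for 30 of the 35 and negative for 5, with a median of 0.53 beside 0.05 for all genes. None of the 35 separated the groups without overlap (0 of 35), as 2.91% of all genes tested did on the higher side. The best-known markers of barrier endothelium were among the genes that did not pass: the glucose carrier Slc2a1 (0.53 ± 0.26 SE), the P-glycoprotein gene Abcb1a (0.10 ± 0.33), the amino acid carrier Slc7a5 (0.57 ± 0.43), the organic anion carrier Slco1a4 (0.81 ± 0.34) and the thyroxine carrier Slco1c1 (0.04 ± 0.24), all as log2 fold changes.

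The number of rises moved with the libraries and the fit. Leaving out control 2 left 8 rises, and leaving out control 1 or DBA/2J 2 gave 14. After division by library totals 18 rose, and with quantile normalization 12 rose, with 0 lower in both. Slc2a1 (0.71, adjusted p = 0.0238) and Slco1a4 (0.98, adjusted p = 0.0309) were among those that passed after division by library totals, by limma, where the median of all genes stood at 0.19. Removing the trend of each library on transcript length and GC content left 3, Slc1a4 (0.60, adjusted p = 0.03), Slc38a2 (0.66, adjusted p = 0.0495) and Slc7a8 (0.68, adjusted p = 0.0439). In that fit 2103 of all 28508 genes tested were higher and 1901 lower. The median log2 fold change there was 0.03 for all genes and 0.26 for the 35. With the mean of the Müller glia markers as a covariate 0 rose and Slco1c1 was lower (-0.80, adjusted p = 0.0229). Of all 29166 genes tested, 205 were higher and 537 lower in that fit. The Müller mean ran from 11.22 to 11.78 in the controls and from 11.52 to 12.44 in DBA/2J. It and the strain can thus be told apart only in part. With the mean of the lens markers 0 of the 35 passed, and of all genes 1 was higher and 8 lower. The lens mean separates the groups, so it and the strain cannot be told apart; in that fit the median log2 fold change of the 35 was 0.43 and standard errors were larger, as for Slc38a2 (1.32 ± 0.46) and Slc12a2 (0.90 ± 0.32). After adjustment for the pan-endothelial mean 9 rose and Slc7a1 (-0.75, adjusted p = 0.0393) and Slc9a3r2 (-0.71, adjusted p = 0.00362) were lower, all by limma.

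**Figure D2:**
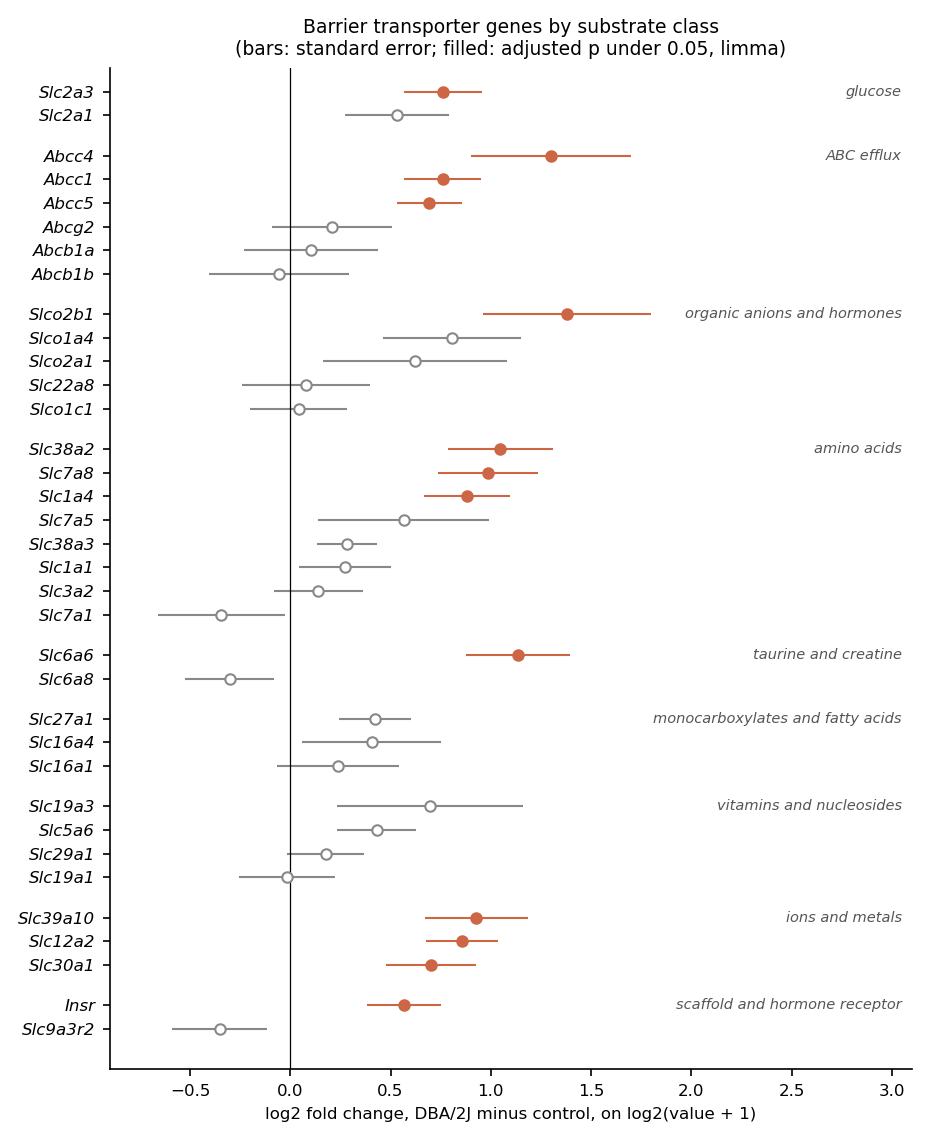
Log2 fold change of each of the 35 genes, DBA/2J minus control on log2(value + 1), by substrate class, with bars for the standard error and filled points for an adjusted p under 0.05 (limma). The 3 genes of the class of ions and metals are all filled, while the classes of monocarboxylates and of vitamins hold no filled point.

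The class of glucose carriers held the gene for the main carrier of the barrier, Slc2a1, and the gene for a high-affinity carrier best known from neurons, Slc2a3. Slc2a1 (chr4:119108711-119137983, plus strand, GRCm38) stood at 4155, 3692, 3660.5, 2552 and 3612 scaled estimated counts in controls 1 to 5, and at 2745 in the lowest, 4419.7 in the median and 8523 in the highest DBA/2J library. DBA/2J 5, 6, 7 and 9 were well above every control, and DBA/2J 1, 2 and 3 lay inside the control range. With 6 of 9 DBA/2J libraries above the highest control, the log2 fold change of 0.53 ± 0.26 (SE) did not pass (adjusted p = 0.157, limma). Slc2a3 stood at 179, 182, 106, 114 and 200.2 in the controls and at 199 to 360.1 with a median of 250.3 in DBA/2J. The groups met only at their edge, with DBA/2J 8 just under control 5, and Slc2a3 rose by 0.76 ± 0.19 on the log2 scale (adjusted p = 0.012, limma).

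Of the 6 ATP-driven pumps 3 rose. These were Abcc1, Abcc4 and Abcc5, which export organic anions, glutathione conjugates and cyclic nucleotides. The drug pumps Abcb1a, Abcb1b and Abcg2 did not pass, and the difference between the families was not tested. Abcc6, of the same family but outside the list, did not pass (-0.57 ± 0.55, adjusted p = 0.51, limma). Abcc4 (chr14:118482692-118706219, minus strand), whose product exports cyclic nucleotides and prostaglandins, stood at 831, 341, 459, 272 and 474 in controls 1 to 5 and at 358, 1245 and 2451 in the lowest, median and highest DBA/2J library. DBA/2J 4 to 9 were above every control, while DBA/2J 1, 2 and 3 lay among the controls. Its log2 fold change was 1.30 ± 0.40 (adjusted p = 0.0299, limma), and the call was lost when any 1 of controls 2, 3 and 4 or DBA/2J 6 and 7 was left out, with an adjusted p of up to 0.0913.

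Abcc1, which exports glutathione conjugates and leukotrienes, stood at 348, 449, 259, 306 and 369.7 in the controls and at 409.8, 561 and 802 in the lowest, median and highest DBA/2J library. DBA/2J 1, 3 and 8 were below the highest control, and the log2 fold change was 0.76 ± 0.19 (adjusted p = 0.0115, limma). Abcc5, an exporter of cyclic nucleotides and other organic anions, stood at 553, 477, 471, 345 and 655 in the controls and at 653, 774 and 984 in DBA/2J. Of the DBA/2J libraries 8 of 9 exceeded every control, and Abcc5 rose by 0.69 ± 0.16 on the log2 scale (adjusted p = 0.00757, limma). Both kept their calls whichever library was left out.

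Abcb1a and Abcb1b encode the P-glycoproteins of the mouse and lie next to each other on chromosome 5, so reads of these similar genes may have been divided between them. Abcb1a stood at 698, 485, 940.2, 739 and 534 in the controls and at 276, 622 and 1537 in the lowest, median and highest DBA/2J library. The highest values were in DBA/2J 6, 7 and 9, the lowest in DBA/2J 2, and the groups overlapped widely (0.10 ± 0.33, adjusted p = 0.863, limma). Abcb1b was low throughout, at 53.5, 23, 45.9, 35 and 33.9 in the controls and 14.1, 30.6 and 73.0 in DBA/2J (-0.06 ± 0.35, adjusted p = 0.931, limma). Abcg2, the pump known as breast cancer resistance protein, stood at 633, 320.2, 489, 457 and 485 in the controls and at 238, 525 and 1089 in DBA/2J (0.21 ± 0.30, adjusted p = 0.678, limma). As with Abcb1a, DBA/2J 2 was the lowest and DBA/2J 9 the highest of all 14 libraries.

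**Figure D3:**
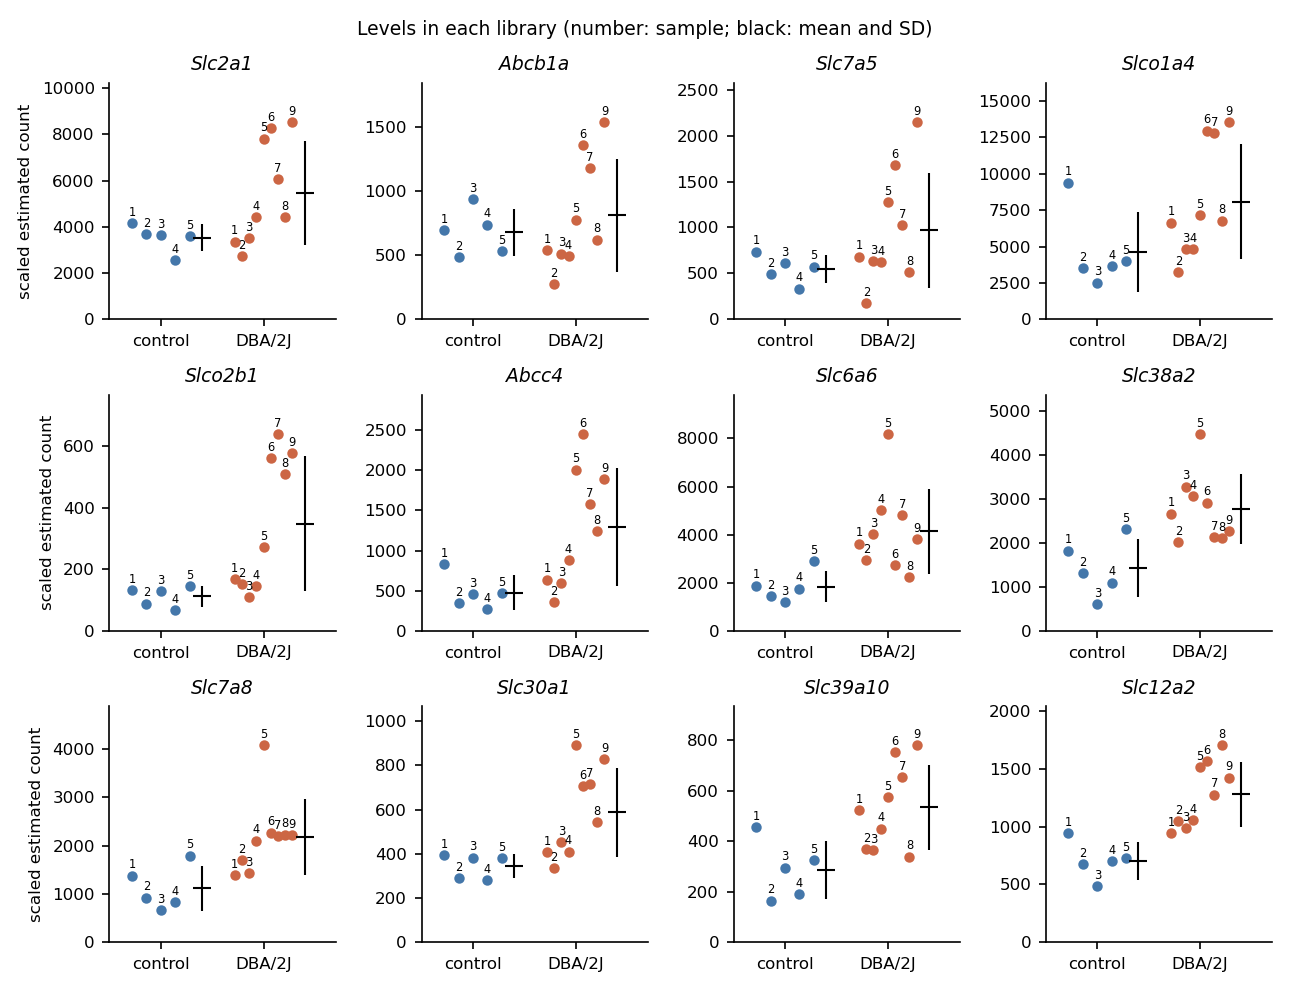
Scaled estimated counts of 12 of the genes in each library, with the sample number beside each point and the mean with its SD in black for 5 controls and 9 DBA/2J mice. In Slc2a1, Abcb1a, Slc7a5 and Slco1a4 libraries 6 and 9 of DBA/2J stand high and library 2 low, while in Slc6a6, Slc38a2 and Slc7a8 library 5 is the highest.

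Among the carriers of organic anions and hormones, Slco2b1 rose and the other 4 did not pass. Slco2b1 (chr7:99657804-99711340, minus strand), a carrier of steroid sulfates and other organic anions, stood at 132, 89.1, 130.4, 66.7 and 146 in controls 1 to 5 and at 109, 273 and 641 in the lowest, median and highest DBA/2J library. DBA/2J 6 to 9 lay between 511 and 641, DBA/2J 5 was lower, and DBA/2J 1 to 4 were close to the highest controls. Its log2 fold change of 1.38 ± 0.42 was the largest of the 35 (adjusted p = 0.0285, limma), and it lost its call when any 1 of controls 2, 3 and 4 or DBA/2J 6 was left out, with an adjusted p of up to 0.0858. The share of leukocyte markers was also highest in DBA/2J 6 to 9, at 0.0889% to 0.161% against 0.0168% to 0.051% in DBA/2J 1 to 5. So was the pan-endothelial share, at 0.252% to 0.426% against 0.118% to 0.187%. In a fit adjusted for the leukocyte mean the log2 fold change of Slco2b1 was 0.23 (adjusted p = 0.602, limma). Adjusted for the pan-endothelial mean it was 0.70 and passed (adjusted p = 0.0273, limma). Which cells the rise came from was not tested.

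Slco1a4, which carries bile acids, steroid conjugates and cardiac glycosides, stood at 9384, 3511, 2527, 3677 and 4003 in the controls and at 3249, 6786 and 13524 in the lowest, median and highest DBA/2J library. Control 1 stood far above the other controls, and DBA/2J 6, 7 and 9 were the highest of all libraries. The log2 fold change was 0.81 ± 0.34 (adjusted p = 0.109, limma), and the gene passed when control 1 or DBA/2J 2 was left out, with a log2 fold change of up to 1.10 and an adjusted p down to 0.0253. Its close relatives Slco1a5 (29.4 to 248 in the controls) and Slco1a6 (16.04 to 33.8) were far lower, and how reads were divided within the family is uncertain. The thyroxine carrier Slco1c1 averaged 1174 ± 365 (SD, n = 5) and 1232 ± 463 (SD, n = 9), the organic anion carrier Slc22a8 1834 ± 534 and 2126 ± 1187, and the prostaglandin carrier Slco2a1 30.9 ± 15.6 and 56.2 ± 47.1. None of the 3 passed, with log2 fold changes of 0.04, 0.08 and 0.62.

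Of 8 amino acid carriers 3 rose. These carry neutral amino acids, as do Slc7a5 with Slc3a2 and the glutamine carrier Slc38a3, which did not pass. Slc38a2, a sodium-coupled carrier of small neutral amino acids (chr15:96687392-96699730, minus strand), stood at 1830.1, 1308, 605, 1099 and 2324 in the controls and at 2015, 2672 and 4486 in the lowest, median and highest DBA/2J library. Control 5 lay inside the DBA/2J range and DBA/2J 5 stood highest (1.05 ± 0.26, adjusted p = 0.0101, limma). Slc7a8, the light chain of a neutral amino acid exchanger, stood at 1379.9, 926, 659.8, 838 and 1794 in the controls and at 1396, 2197 and 4070.4 in DBA/2J. DBA/2J 1, 2 and 3 were below control 5, and the log2 fold change was 0.98 ± 0.25 (adjusted p = 0.011, limma). Slc1a4, a carrier of alanine, serine and cysteine, stood at 347, 389.9, 222, 187 and 438 in the controls and at 349, 573 and 742 in DBA/2J. Only DBA/2J 3 lay below the highest control (0.88 ± 0.21, adjusted p = 0.00878, limma), and none of these 3 calls was lost when a library was left out.

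Slc7a5 and Slc3a2 encode the light and heavy chain of the barrier's carrier of large neutral amino acids. Slc7a5 stood at 738, 489, 609, 334 and 574 in the controls and at 177, 684 and 2143 in the lowest, median and highest DBA/2J library. DBA/2J 2 was below every control and DBA/2J 5, 6, 7 and 9 above every control, so the spread within DBA/2J was wider than the difference (0.57 ± 0.43, adjusted p = 0.383, limma). Slc3a2 stood at 3878, 3397, 5068, 2540.3 and 4030.5 in the controls and at 2637, 4221 and 6644 in DBA/2J (0.14 ± 0.22, adjusted p = 0.707, limma). Its highest values were again in DBA/2J 5, 6 and 9.

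The other 3 amino acid carriers overlapped between the groups. Slc7a1, which carries arginine and lysine, stood at 422, 327, 621, 571 and 470.1 in the controls and at 215, 342 and 1180.1 in DBA/2J. All DBA/2J libraries except DBA/2J 9 were below control 3 (-0.34 ± 0.32, adjusted p = 0.486, limma). The glutamine carrier Slc38a3 stood at 2246, 2608, 2776, 1653 and 2149 in the controls and at 2328, 2614 and 4011 in DBA/2J (0.28 ± 0.15, adjusted p = 0.193, limma). The glutamate carrier Slc1a1 stood at 2981, 2036, 969.9, 1182 and 1315 in the controls and at 1282, 1796 and 2821 in DBA/2J (0.27 ± 0.23, adjusted p = 0.445, limma). No DBA/2J library exceeded control 1 for Slc1a1.

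The taurine carrier Slc6a6 (chr6:91684053-91759066, plus strand) was among the 4 largest rises. It stood at 1885, 1452, 1209, 1759 and 2912 in controls 1 to 5 and at 2232, 3801 and 8189 in the lowest, median and highest DBA/2J library. Of the DBA/2J libraries 7 of 9 exceeded every control, with DBA/2J 5 highest and DBA/2J 6 and 8 inside the control range. The log2 fold change was 1.14 ± 0.26 (adjusted p = 0.00666, limma) and the call held whichever library was left out. The creatine carrier Slc6a8, of the same family, averaged 352 ± 131 (SD, n = 5) in the controls and 274 ± 53.3 (SD, n = 9) in DBA/2J and did not pass (-0.30 ± 0.22, adjusted p = 0.372, limma).

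None of the carriers of monocarboxylates, fatty acids, vitamins and nucleosides passed (0 of 3 and 0 of 4). Slc16a1, the carrier of lactate, pyruvate and ketone bodies, ranged from 6114 to 14524 in the controls and from 4816 to 17789 in DBA/2J (0.24 ± 0.30, adjusted p = 0.638, limma). Slc16a4, a less studied gene of that family, averaged 300 ± 147 and 394 ± 195, and Slc27a1, which takes up long-chain fatty acids, 3992 ± 1082 and 5237 ± 889.6 (SD, n = 5 and n = 9). For Slc27a1, 6 of 9 DBA/2J libraries exceeded every control (0.42 ± 0.18, adjusted p = 0.108, limma). The thiamine carrier Slc19a3 was lowest of all libraries in DBA/2J 2 and passed when that library was left out (1.00, adjusted p = 0.0394, against 0.70 ± 0.46 and 0.313 with it, limma). The carrier of biotin and pantothenate, Slc5a6, passed when control 1 was left out (0.59, adjusted p = 0.0381, against 0.43 ± 0.20 and 0.138, limma). After division by library totals Slc27a1 (0.60, adjusted p = 0.0121) and Slc5a6 (0.60, adjusted p = 0.0395) passed, and with quantile normalization Slc27a1 did (0.46, adjusted p = 0.0434, limma). The folate carrier Slc19a1 (-0.02 ± 0.24) and the nucleoside carrier Slc29a1 (0.18 ± 0.19) did not pass in any fit that was run.

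Ions and metals were the class in which all genes rose, 3 of 3. Their transcripts measure 5244 to 6520 nucleotides, and 36.8% of coding genes over 5000 nucleotides averaging 1 CPM or more were higher. With the length and GC trend removed none of the 3 passed (adjusted p from 0.0912 to 0.427, limma). Slc12a2, which brings sodium, potassium and chloride into cells together, stood at 943, 673, 485, 702 and 725 in the controls and at 941, 1275 and 1701 in the lowest, median and highest DBA/2J library. Control 1 and DBA/2J 1 almost coincided, and the other 8 DBA/2J libraries exceeded every control. Slc12a2 rose by 0.86 ± 0.18 on the log2 scale, with the lowest adjusted p of the 35 (0.004, limma), and kept its call whichever library was left out.

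Slc30a1, the zinc exporter of the cell membrane, stood at 394, 289.6, 383, 283 and 381 in the controls and at 336, 542 and 890.4 in DBA/2J. Only DBA/2J 2 lay inside the control range (0.70 ± 0.23, adjusted p = 0.037, limma). Slc39a10, a zinc importer, stood at 457, 165, 296, 192 and 325 in the controls and at 339.7, 523 and 780.4 in DBA/2J. Of the DBA/2J libraries 5 of 9 exceeded control 1 (0.93 ± 0.26, adjusted p = 0.0177, limma). The call of Slc30a1 was lost when any 1 of controls 2, 3 and 4 or DBA/2J 5, 6, 7 and 9 was left out (adjusted p up to 0.0958), and that of Slc39a10 without control 2 or 4 (adjusted p up to 0.0583).

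Insr, the insulin receptor, which also carries insulin across barrier endothelium, ranged from 305 to 715 in the controls and from 568.0 to 921 in DBA/2J. It rose by 0.57 ± 0.19 on the log2 scale (adjusted p = 0.0404, limma), and this was the least stable of the calls, lost when any 1 of controls 1, 2 and 3 or DBA/2J 2, 3, 4, 5, 7 and 9 was left out (adjusted p up to 0.133). The scaffold gene Slc9a3r2 ranged from 2285 to 4676 in the controls and from 1661 to 4659 in DBA/2J. No DBA/2J library exceeded control 3, and the log2 fold change was -0.35 ± 0.24 (adjusted p = 0.32, limma).

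Set beside each other per kilobase of the longest coding transcript, the genes spanned a wide range of levels in the controls. Slc16a1 was highest at 2117 scaled estimated counts per kilobase, followed by Slc9a3r2 (1471), Slc3a2 (1345), Slc27a1 (1245), Slco1a4 (1209) and Slc2a1 (1084), all as means of 5 libraries. Slco2a1 (4.35), Abcb1b (8.88), Slc2a3 (25.0) and Slco2b1 (25.8) were lowest. The ranges over the control libraries overlapped for 33 of the 34 pairs of neighbours in this order, so that the order of neighbours is not firm. Only Slc2a3 and Abcb1b did not overlap. The main barrier glucose carrier Slc2a1 thus stood far above Slc2a3, and no gene that rose was among the 11 highest per kilobase. Division by length lowers long transcripts, and the genes that rose had longer ones (median 5811 against 3440 nucleotides). Undivided, Slc6a6, Slc38a2 and Slc7a8 averaged 1843, 1433 and 1120 in the controls. Slco1c1 and Slc5a6, which are among those 11, averaged 1174 and 1261.

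Promoters of the members were searched for ACGTG, the core of the hypoxia response element, and for CTTTGA, the core of the TCF/LEF element, because Slc2a1 is a known target of hypoxia-inducible factors and the retinal barrier depends on Wnt signalling. Windows of 300 bases, 250 before and 50 after the start of a gene, came from RefSeq (GRCm38.p6) and matched 27 of the 35 genes. The most upstream RefSeq start of a gene was used, which for some genes, such as Abcb1a, Slco2a1 and Slc39a10, lies far from the start of the GENCODE gene. Bases after the start were found in a GENCODE transcript of the gene for 18 of the 27 windows, on the same strand, and for 0 on the opposite strand. Upstream sequences of 250 bases are shown for Slc2a1 as the reference gene of the barrier (chr4:119108495-119108744, plus strand). The 2 other genes shown were chosen because they hold the most ACGTG matches in these bases. They are Abcc4 (chr14:118706220-118706469, minus strand) and Slc16a1 (chr3:104638414-104638663, plus strand). Capitals mark ACGTG on either strand, and CACGTG, which reads the same on both strands, counts as 2 overlapping matches.
Slc2a1: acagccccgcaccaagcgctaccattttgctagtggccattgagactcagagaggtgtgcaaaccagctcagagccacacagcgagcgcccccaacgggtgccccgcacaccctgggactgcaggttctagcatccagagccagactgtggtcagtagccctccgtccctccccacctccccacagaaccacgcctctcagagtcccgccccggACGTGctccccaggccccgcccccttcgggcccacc
Abcc4: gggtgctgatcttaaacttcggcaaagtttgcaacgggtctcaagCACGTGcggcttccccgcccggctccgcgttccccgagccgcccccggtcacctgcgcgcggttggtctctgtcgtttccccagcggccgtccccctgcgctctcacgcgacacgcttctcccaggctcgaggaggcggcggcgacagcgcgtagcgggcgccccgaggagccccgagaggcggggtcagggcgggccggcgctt
Slc16a1: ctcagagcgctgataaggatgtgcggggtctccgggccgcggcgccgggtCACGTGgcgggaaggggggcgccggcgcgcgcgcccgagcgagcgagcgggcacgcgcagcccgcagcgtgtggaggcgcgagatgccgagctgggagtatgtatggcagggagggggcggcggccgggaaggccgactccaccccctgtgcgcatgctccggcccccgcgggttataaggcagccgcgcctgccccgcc
ACGTG was found in 8 of the 27 windows (29.6%), against 19.6% of 27025 windows of the same length, and CTTTGA in 6 (22.2%) against 16.2%. Among the 8 genes that rose and have a window, 1 held ACGTG and 2 held CTTTGA. A match describes these letters in this window and says nothing of binding.

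The genes that rose had long transcripts. Their longest coding transcripts measured 3926 to 9355 nucleotides with a median of 5811, those of the other 22 genes 2136 to 7179 with a median of 3440, and those of coding genes averaging 1 CPM or more had a median of 3414. Of the 13 genes over 5000 nucleotides 10 rose, against 36.8% of such coding genes, and their median log2 fold change was 0.76 against 0.47. Of the 22 genes of up to 5000 nucleotides 3 rose (Slco2b1, Slc7a8 and Slc1a4), against 16%, with a median of 0.28 against 0.10. The threshold of 5000 was chosen after the values were seen. Across the 35 genes, which are not independent replicates, Pearson's r between length and log2 fold change was 0.40 and Spearman's rho 0.43. Abcb1a (4997 nucleotides), Abcg2 (5717) and Abcc4 (5715) had log2 fold changes of 0.10, 0.21 and 1.30. These 3 genes were picked after the values were seen and differ in GC content (45.2%, 39.2% and 49.7%). With the length and GC trend removed their log2 fold changes were -0.27, 0.12 and 0.86, and none passed (limma, adjusted p = 0.645, 0.854 and 0.12). The part of length in the rises was not tested.

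**Figure D4:**
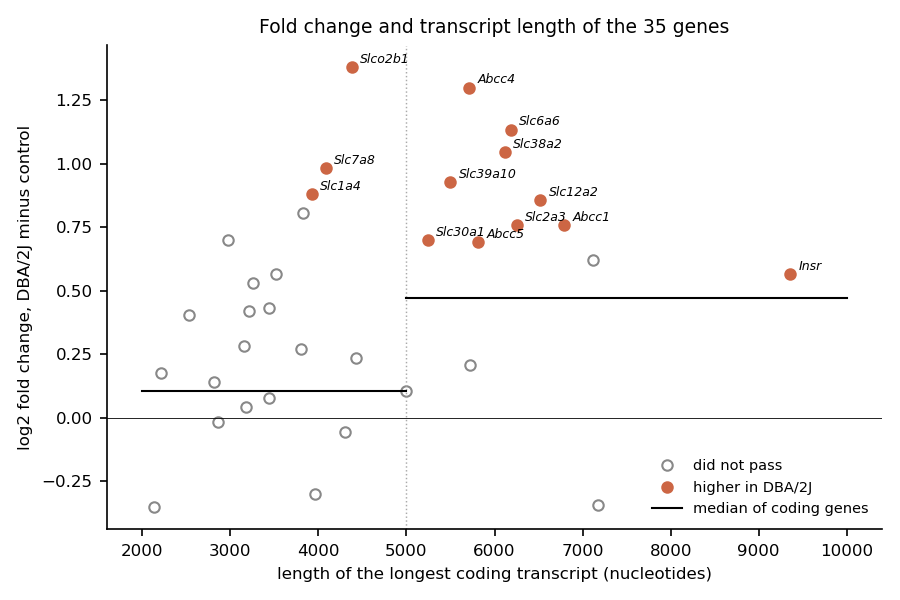
Log2 fold change (DBA/2J minus control) against the length of the longest coding transcript for the 35 genes, filled where the adjusted p was under 0.05; black lines mark the median of coding genes up to and over 5000 nucleotides. Of the 13 genes on the right 10 are filled, and of the 22 on the left 3.

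Within the 9 DBA/2J libraries the genes differed in whether they followed the endothelial and glial markers. For every gene the log2 value was compared with the mean log2 value of the pan-endothelial list and of the Müller glia list, which makes 70 relations, tested by exact permutation and adjusted together; these relations were added after the results were seen. Values and marker means came from the same libraries, so the scaling of a library enters both. The endothelial mean was lowest in DBA/2J 2 (9.36) and highest in DBA/2J 9 (11.50), without a clear gap between groups of libraries, and the 2 means were themselves related (r = 0.85). With the endothelial mean 16 of 35 relations passed, all positive, and with the Müller mean 19 of 35, all positive.

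Of the 13 genes that rose, 4 passed with each mean, and the median r with the endothelial mean was 0.43 for the 13 and 0.76 for the other 22. This difference was not tested. Slco1a4 followed the endothelial mean (r = 0.94, permutation p = 0.0003, adjusted 0.00263; rho = 0.95, permutation p = 0.000353, adjusted 0.00583), with r = 0.89 without DBA/2J 7 and 9. Slco2b1 did so too (r = 0.95, permutation p = 0.000196, adjusted 0.00228; rho = 0.90, permutation p = 0.00203, adjusted 0.0101), with r = 0.95 without those 2 libraries. Abcb1a and Abcg2 had r of 0.92 and 0.93 with the endothelial mean (permutation, both adjusted p = 0.00338). With the Müller mean r was 0.94 for Abcb1a, 0.90 for Abcg2 and 0.89 for Slco1a4. These relations passed too (permutation, adjusted p = 0.00263, 0.00668 and 0.00898), so these genes followed both means. Slco2b1 had r of 0.75 with the Müller mean and missed the threshold (permutation, adjusted p = 0.0507). Slc2a1 was closest to the Müller mean (r = 0.98, permutation p = 1.65e-05, adjusted 0.00116; rho = 0.97, permutation p = 0.000165, adjusted 0.00386), with r = 0.97 without DBA/2J 6 and 9, and its r with the endothelial mean was 0.82.

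For several of the more stable rises no such relation passed. With the endothelial mean, r was -0.06 for Slc6a6 (permutation p = 0.887, adjusted 0.90), -0.26 for Slc38a2 (permutation p = 0.498, adjusted 0.572), -0.003 for Slc2a3 (permutation p = 0.995) and 0.22 for Abcc5 (permutation p = 0.552, adjusted 0.587). With the Müller mean these 4 genes had r between 0.23 and 0.39, and none passed. These values depended on single libraries. Without DBA/2J 6 and 9, r with the Müller mean was 0.70 for Slc6a6, 0.46 for Slc38a2, 0.105 for Slc2a3 and 0.18 for Abcc5. With 9 libraries, a p that misses the threshold does not show that a gene is unrelated to either cell type. In the comparison of strains with the Müller mean as a covariate their log2 fold changes were 0.78, 0.63, 0.44 and 0.43, and none passed (limma, adjusted p from 0.226 to 0.343). Of all 29166 genes tested, 205 were higher in that fit.

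**Figure D5:**
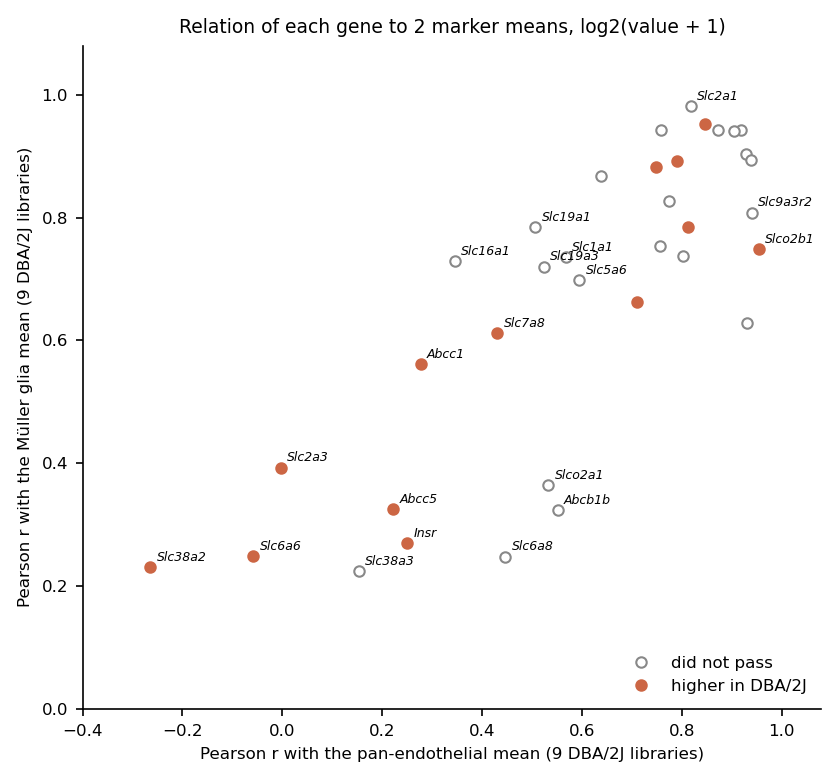
Pearson's r of each of the 35 genes with the pan-endothelial mean (horizontal axis) and with the Müller glia mean (vertical axis) over the 9 DBA/2J libraries, filled where the gene rose in DBA/2J. Slc2a1, Slco2b1 and Slc9a3r2 lie at the upper right, while Slc38a2, Slc6a6 and Slc2a3 lie at the left with r near or below 0 on the horizontal axis.

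Transport genes outside the list were described in the same fit. Of 46 other transport genes, listed by symbol as linked to the blood-retina barrier, 16 rose and 0 fell, with a median log2 fold change of 0.60. Other cells of the eye may also use these genes, and which cells the rises came from was not tested. The lowest p-values were those of the inositol carrier Slc2a13 (1.54 ± 0.27, adjusted p = 0.00152), the vitamin C carrier Slc23a2 (1.05 ± 0.20, adjusted p = 0.00212), the choline carrier Slc44a1 (1.19 ± 0.23, adjusted p = 0.00255) and the cholesterol exporter Abca1 (1.26 ± 0.25, adjusted p = 0.00315, limma). Mfsd2a, the carrier of lysolipids that marks barrier endothelium, averaged 225 ± 60.5 (SD, n = 5) and 214 ± 126 (SD, n = 9) and did not pass (-0.20 ± 0.31, adjusted p = 0.705, limma). Of 16 carriers best known from retinal neurons, glia and pigment epithelium 8 rose and 1 fell, with a median of 0.66. Among those with the lowest p were the GABA carrier Slc6a11 (1.17 ± 0.20), the bicarbonate carrier Slc4a10 (1.71 ± 0.34) and the glial glutamate carrier Slc1a3 (0.82 ± 0.17), which is also on the Müller marker list, with adjusted p-values of 0.00154, 0.0033 and 0.00389 (limma). Slc16a8, the lactate carrier of the pigment epithelium, fell by 1.07 (adjusted p = 0.0338, limma). The 3 lists thus held rises in 13 of 35, 16 of 46 and 8 of 16 genes, and the difference between the lists was not tested. Of all genes tested 12.1% were higher, and of coding genes averaging 1 CPM or more 20.9%. Among such coding genes over 5000 nucleotides the share was 36.8%, and transcript lengths of the other 2 lists were not compared.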

How the data were processed

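RNA from retinal veins of 14 mice was sequenced after full-length amplification (SMART-Seq v4) of about 100 pg RNA (integrity number over 9), per the labels' protocols. The deposited values, 1 per gene symbol and library, are a signal: judged from their steps, estimated counts that the authors divided by a library factor. The design text names kallisto with GRCm38, while GRCm39, kallisto and sleuth stand in the submitters' processing notes, which leaves the build unsettled. Neither the making of the factors nor of gene totals is stated there. Values that came out whole (tolerance 0.01) made up 18.64% to 21.9% per library, so whole reads were not recovered and no count model was run, although the design had named one for raw counts.

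Of 40149 rows, 26 whose symbols had turned into dates were left out. Of the other symbols, 39019 matched GENCODE M21 (GRCm38), which gave coordinates and the length of the longest coding transcript. The 29166 genes that reached 1 in 5 or more libraries entered a limma trend fit of group on log2(value + 1) (limma 3.58.1, R 4.3.3), with two-sided p-values adjusted after Benjamini and Hochberg over these genes at 0.05. This scale understates changes of low genes. Each library comes from 1 mouse, and mice are the replicates behind every p-value. Marker shares and relations used exact permutation tests run in Python 3.11.15, with ranks from scipy 1.17.1.

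The genes and lists were chosen with earlier results of these data known. All 35 were named; the 3 classes that tie for most calls, Slc2a1, Abcb1a, Slc7a5, Slco1a4 and the 4 largest rises were given by library, and up to 4 genes with the lowest p of each other list, with Mfsd2a. Slc16a8, named as the 1 carrier that fell, Abcc6, Slco1a5 and Slco1a6 lie outside that rule and were chosen after their values were seen. A gene that the rule names is not reported here. The fit was tested on simulated data. Alternatives covered filters (none, and 10 in 5 libraries), pseudocounts of 0.1 and 5, scaling, a length and GC trend (spline, 5 degrees of freedom), weights, marker covariates, subsets of controls, the sample number as a block and each library left out; voom weights were added after seeing the data.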

Additional observations from a re-analysis of the deposited data

Results flagged for a closer look

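Of 70 groups of libraries, 2 for each of the 35 genes, 4 held a library far from the others by Dixon's test at 95%, where chance flags about 1 in 20 groups. Slc2a1 was low in control 4, at 2552 scaled estimated counts against 3612 to 4155 in the other controls. Slc7a8 was high in DBA/2J 5, at 4070.4 against 1396 to 2268 in the other DBA/2J libraries. Slc38a3 was high in DBA/2J 4, at 4011 against 2328 to 3032. Slc19a3 was low in DBA/2J 2, at 27.2 against 110.0 to 330.2, and it passed the test when that library was left out.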

How the results depend on the processing

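Of 1085 fitted values of the 35 genes under 31 alternatives, 946 kept their side of the threshold. Another 117 lost and 19 gained a call with the same sign, and 3 changed sign where the reported or the alternative fit passed. The cause was not tested. The 3 were Abcc4 (-0.108) and Slco1c1 (-0.804) with the Müller mean as a covariate and Slc30a1 (-0.008) with the replicate block and the length and GC trend removed. No call turned into a call of the other sign. Abcc4 and Slc30a1 lost their calls (limma, adjusted p = 0.882 and 0.988), and Slco1c1 had no call as reported. Among the 946, 82 values, of 17 genes, changed sign where neither fit passed. Of the 13 rises, 8 passed in all 14 fits with a library left out. The counts below follow the order all genes, the 35 genes higher, the list of other transport genes (other barrier genes), neuron and glia carriers. They were 5619, 13, 16 and 9 as reported.

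With the Müller mean as a covariate they were 742, 0, 1 and 1, and with the lens mean, which separates the groups, 9, 0, 0 and 0. With the length and GC trend removed they were 4004, 3, 9 and 4. Controls 1 to 3 alone gave 3707 for all genes, 8 for the 35 and 10 for the other barrier genes, and controls 4 and 5 alone 2446, 1, 5 and 2. The leukocyte mean as a covariate left 6 of the 35, and scaling to the own total gave 25 of the other barrier genes. Of the 35, which held 0 lower, 2 were lower with the pan-endothelial mean, 1 with the Müller mean, 1 with the leukocyte mean and 1 with the replicate block and length and GC trend. With a library left out, counts ran from 3530 to 6315, 8 to 14, 10 to 19 and 5 to 11.

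The sample numbers do not pair mice (correlation of same-numbered deviations from -0.082 to 0.015, and no library correlated best with its own number). The replicate block on these numbers gave 2465, 3, 6 and 5, and with the length and GC trend removed 864, 1, 2 and 1.

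The Müller marker share differed by 0.143 percentage points, by 0.0184 without its most abundant gene, by 0.117 with lens genes out of the total and by 0.107 to 0.155 with a library left out. The red cell share differed by -1.13 to -0.536 percentage points with a library left out and passed without DBA/2J 9 (-1.07). Reads per library and 5 controls limit what could be detected: in simulated data for this comparison 63% of genes changed by 1 on the log2 scale and 96% of those changed by 2 were recovered. The simulation changed 200 of 29166 genes, all of higher level and with independent errors, whereas the data gave 5619 calls. The p-value needed to pass was therefore stricter there. Low genes such as Slco2a1 and Abcb1b were not among those changed.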
